A study of Mus musculus with 8 samples.

Results

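The genes of DNA replication were followed through the RNA of myeloid cells sorted from sanroque mice. They comprise 40 genes, chosen as the rows of the count table whose gene symbol equals a name on a list of replication factors, out of 54188 genes in all. Every one of the 40 was found once and passed the filter on low counts, so all 40 are among the 17650 genes tested. The libraries fall into 4 groups: Gr-1hi cells (G-MDSC, labelled CD11+Gr-1hi) and Gr-1lo cells (M-MDSC, labelled CD11+Gr-1low) from the spleen (SP) and the same cell types from the bone marrow (BM), with 2 libraries in each group. All 4 groups came from homozygous Roquin(san/san) mice on a C57BL/6 background, obtained by crossing Roquin(san/+) animals, labelled female and 20 weeks of age. The san allele of *Roquin* is therefore carried by the BM and the SP groups alike, and no wild-type library was analysed here. The cells were sorted on CD11b and Gr-1 by flow cytometry, and each group is described as a pair of independent biological replicates. Nothing in the labels says whether animals were pooled or which libraries came from the same mouse, so the p values below measure the spread between these libraries.

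A cell copies its DNA once per division. In G1 the origin recognition complex, CDC6 and CDT1 load the MCM helicase onto origins (licensing), and at the start of S phase CDC45, GINS and MCM10 turn the loaded helicase into an active fork, where DNA polymerases α, δ and ε with their primase, clamp and clamp loader copy the strands. Cyclin E and the E2F transcription factors drive the step from G1 into S phase, and many genes of licensing, synthesis and nucleotide supply are known E2F targets. In the marrow, neutrophil precursors divide up to the myelocyte stage and stop dividing as they mature, while monocyte precursors also divide before they leave.

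Promoters of the 40 genes were read from RefSeq (GRCm38.p6), from 250 bases before to 50 bases after each annotated start. The table holds 38 promoters for 33 of the 40 genes, and *Ccne2*, *Gins1*, *Gins2*, *Gins4*, *Mcm4*, *Pole* and *Prim2* had no entry. E2F letters, searched as TTTGGCGC, TTTCGCGC, TTTCCCGC or TTTGCCGC on both strands, occurred in 14 of the 38 promoters (36.8%), which belong to 14 of the 33 genes (42.4%). Among all 32851 promoters of that length in the table, 2.26% held them. The CCAAT letters occurred in 52.6% of the genes' promoters against 37.4% of all, the SP1 letters GGGCGG in 76.3% against 35.7%, and the CHR letters TTTGAA, which occur in promoters of many genes of mitosis, in 10.5% against 17.9%. The median GC content was 60.7% against 52.7%. A match is a description of letters, not evidence of a bound site, and these shares were not tested against each other. Other forms of the E2F letters were not searched. TTTGGCGG, which the *Pola2* and *Chaf1a* promoters hold on one strand or the other, therefore counts here as no match.

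At least 2 matches were found in 5 promoters, which are shown in full because they belong to 4 subunits of the same helicase and to a clamp loader subunit. Each is written 5′ to 3′ on the strand of its gene, with the E2F letters, on either strand, in capitals.
Mcm3 (chr1:20820263-20820562, minus strand): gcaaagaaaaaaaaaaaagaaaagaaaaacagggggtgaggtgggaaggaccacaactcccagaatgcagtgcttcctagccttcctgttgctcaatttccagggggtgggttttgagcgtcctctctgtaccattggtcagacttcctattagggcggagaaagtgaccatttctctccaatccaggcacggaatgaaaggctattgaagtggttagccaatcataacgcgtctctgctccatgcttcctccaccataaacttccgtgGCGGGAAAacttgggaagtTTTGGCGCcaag
Mcm5 (chr8:75109259-75109558, plus strand): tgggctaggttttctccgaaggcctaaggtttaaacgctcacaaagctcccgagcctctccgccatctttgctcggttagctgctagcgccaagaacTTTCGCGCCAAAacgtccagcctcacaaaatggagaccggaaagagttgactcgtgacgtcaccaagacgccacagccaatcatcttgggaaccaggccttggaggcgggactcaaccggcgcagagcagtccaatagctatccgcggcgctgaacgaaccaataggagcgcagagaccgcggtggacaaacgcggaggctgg
Mcm6 (chr1:128359656-128359955, minus strand): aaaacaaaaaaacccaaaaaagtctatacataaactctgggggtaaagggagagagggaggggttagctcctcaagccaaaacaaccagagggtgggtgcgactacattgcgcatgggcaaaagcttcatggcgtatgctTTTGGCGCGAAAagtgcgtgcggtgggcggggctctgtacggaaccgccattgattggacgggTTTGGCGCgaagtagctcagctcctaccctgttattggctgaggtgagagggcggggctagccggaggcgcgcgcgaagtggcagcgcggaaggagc
Mcm7 (chr5:138171834-138172133, minus strand): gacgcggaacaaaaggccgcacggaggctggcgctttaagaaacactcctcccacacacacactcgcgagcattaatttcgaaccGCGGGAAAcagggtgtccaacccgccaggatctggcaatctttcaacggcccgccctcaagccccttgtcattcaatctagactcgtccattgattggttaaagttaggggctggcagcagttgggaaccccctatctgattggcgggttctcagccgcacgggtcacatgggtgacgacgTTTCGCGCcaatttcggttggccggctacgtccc
Rfc3 (chr5:151651159-151651458, minus strand): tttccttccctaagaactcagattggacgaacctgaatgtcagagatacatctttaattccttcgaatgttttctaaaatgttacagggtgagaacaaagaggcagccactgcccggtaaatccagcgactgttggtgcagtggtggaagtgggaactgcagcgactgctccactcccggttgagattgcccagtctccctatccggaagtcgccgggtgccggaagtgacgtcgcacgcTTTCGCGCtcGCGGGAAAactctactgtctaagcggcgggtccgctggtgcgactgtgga
*Mcm6* had 3 matches and the others 2. Positions were counted from 0 at the first base of the transcript as RefSeq annotates it. For some genes, among them *Cdc6*, *Dut*, *E2f1* and *Mcm7*, the promoters read lay wholly inside the gene as GENCODE M21 annotates it. The matches in *Mcm5*, from -153 to -142, overlapped each other, as did the upstream pair in *Mcm6*, from -110 to -99. *Mcm6* held another from -47 to -40, and both in *Mcm3* lay after the start, from 19 to 26 and from 38 to 45. A single match was found in the promoters of 4 further genes whose interaction of tissue and subset, described later, was called. For these the 40 bases around the match are shown, with the coordinates of that stretch.
Orc1 (chr4:108579411-108579450, plus strand): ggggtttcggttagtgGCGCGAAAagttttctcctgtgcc
Cdc6 (chr11:98907997-98908036, plus strand): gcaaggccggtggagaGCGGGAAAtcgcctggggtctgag
Pola1 (chrX:93632270-93632309, minus strand): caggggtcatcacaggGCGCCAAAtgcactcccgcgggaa
Pole2 (chr12:69228157-69228196, minus strand): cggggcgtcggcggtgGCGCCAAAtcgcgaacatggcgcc
The match began at -27 in *Orc1*, at -138 in *Cdc6* and in *Pola1*, and at 10 in *Pole2*. *Cdt1*, *Gins3*, *Lig1*, *Pold1* and *Uhrf1* also had 1 match each and are not shown, and their interaction was not called.

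Depth was 33453580 to 68316154 counts per library, and a count of 0 would allow up to 3 counts, or 0.0348 to 0.124 CPM (counts scaled to a common library size by TMM), for counting error only. None of the 40 genes had 0 counts in a library. The lowest value was that of *Orc1* in library 9, with 3 counts. The mice are labelled female, but *Ddx3y*, a gene of the Y chromosome, was at 33.7 to 82.6 CPM in 7 libraries and at 0 in library 5, and *Xist*, which is transcribed from the inactive X chromosome, was at 363 CPM in library 5, 209 CPM in library 7 and at most 0.102 CPM elsewhere. Library 7 held both. Results are therefore also given without libraries 5 and 7, and their part in the results was not tested otherwise. Markers went with the sort: 5 genes of mature neutrophils summed to 22523 to 36376 CPM in Gr-1hi and 628 to 715 CPM in Gr-1lo libraries, and 6 genes of monocytes to 1032 to 1746 CPM against 6405 to 9710 CPM. Gr-1lo libraries also held 7 genes of early granulocyte stages, at 1262 to 3359 CPM in sum against 81.9 to 215 CPM in Gr-1hi libraries. Of the 7, 5 were called lower in Gr-1hi cells of each tissue, and 1 was called higher in BM.

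Replication genes were expressed in every group but at very different levels. Together the 40 genes took 0.308% and 0.337% of the counts in BM Gr-1lo libraries and 0.265% and 0.234% in SP Gr-1lo libraries. In Gr-1hi libraries their share was 0.0183% and 0.0240% in BM and 0.0277% and 0.0264% in SP. Values of a group are given throughout for its libraries in the order of their numbers, 11 and 12 for BM Gr-1lo, 7 and 8 for SP Gr-1lo, 9 and 10 for BM Gr-1hi, and 5 and 6 for SP Gr-1hi. The heat map of CPM shows this split for each gene. In these bulk samples, fewer cells in S phase and less RNA per cell cannot be told apart.

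**Figure D1:**
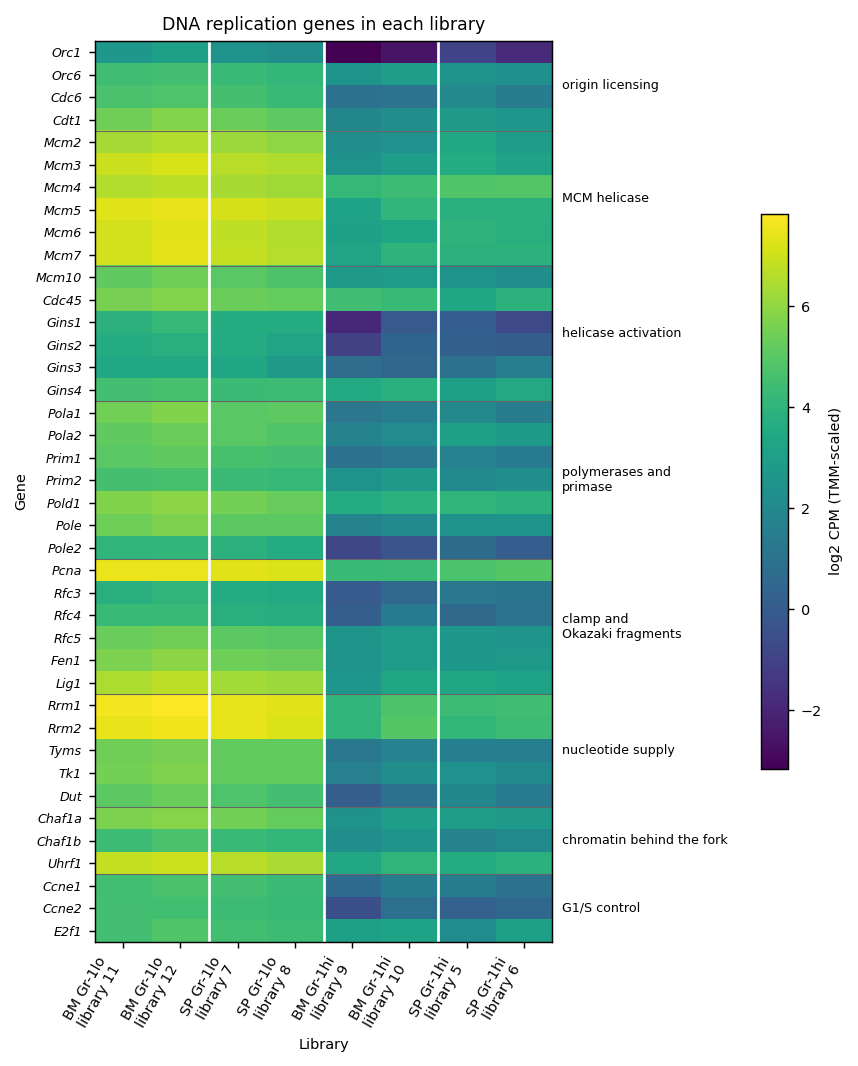
Level of each of the 40 genes (rows, grouped by role) in each of the 8 libraries (columns, grouped by tissue and subset), as log2 CPM scaled by TMM. All 40 rows are brighter in the 4 Gr-1lo columns than in the 4 Gr-1hi columns of the same tissue, least so in *Gins4*.

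Per transcript length, in TPM, *Pcna*, the sliding clamp, was the highest of the 40 in BM Gr-1lo cells at 236 TPM, followed by *Rrm2*, the regulated subunit of ribonucleotide reductase, at 207 TPM and *Mcm5* at 129 TPM. The same 3 genes led in SP Gr-1lo cells, at 192, 172 and 97.3 TPM. *Orc1*, the largest subunit of the origin recognition complex, was the lowest in all 4 groups, at 6.74 TPM in BM Gr-1lo and 0.0664 TPM in BM Gr-1hi. In Gr-1hi cells the order differed, with *Gins4* first in BM (16 TPM) and the third in SP (14.5 TPM).

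The first comparison asks how the granulocytic and monocytic subsets of one tissue differ. In BM, all 40 genes were lower in Gr-1hi than in Gr-1lo cells with adjusted p values under 0.05, against 41.2% of all genes tested, and 39 also passed an FC of 2 (quasi-likelihood test of edgeR, adjusted after Benjamini and Hochberg over 17650 genes, n = 2 libraries per group). Of all genes tested, 57.3% were called in either direction and 33.1% were called lower. The median log2 FC of the 40 was -3.50, with a range from -5.76 in *Orc1* to -0.91 in *Gins4*, while that of all genes was -0.17. At the study's stricter thresholds for this pair, adjusted p under 0.01 with more than 8-fold change, 28 of the 40 were lower, against 10.1% of all genes tested. The libraries of the subsets did not overlap for any of the 40, against 48.2% of all genes that were lower without overlap.

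Licensing factors fell by 1.75 (*Orc6*) to 5.76 (*Orc1*) on the log2 scale. *Orc1* had 6.51 and 8.73 CPM in BM Gr-1lo and 0.112 and 0.165 CPM in BM Gr-1hi libraries. These last values rest on 7 counts, so that the Gr-1hi level was 1.79% of the Gr-1lo level with a 95% exact counting interval of 0.718% to 3.71%. *Cdc6*, the ATPase that loads the helicase together with CDT1, had 25.4 and 27.6 CPM in Gr-1lo and 1.91 and 2.02 CPM in Gr-1hi libraries, a log2 FC of -3.75 with an SE of 0.21 (adjusted p = 7.27e-07 in the edgeR test). *Orc6* kept 29.8% of its Gr-1lo level, the most among the licensing factors.

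All 6 subunits of the MCM helicase fell, by 2.36 (*Mcm4*) to 4.32 (*Mcm3*) on the log2 scale. *Mcm2* had 80.6 and 94.2 CPM in Gr-1lo and 4.67 and 5.33 CPM in Gr-1hi libraries, a 17.5-fold difference (log2 FC -4.13, SE 0.20). *Mcm5* had 155 and 179 CPM against 9.23 and 16.6 CPM (log2 FC -3.69, SE 0.25) and its Gr-1hi libraries lay further apart than those of *Mcm2*. The 6 subunits assemble in equal numbers, yet *Mcm4* kept 19.5% of its Gr-1lo level and each of the other 5 between 5.01% and 8.39%.

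Among the helicase activators, *Gins1* fell by 4.81 (SE 0.40), from 15.2 and 18.2 CPM to 0.262 and 0.950 CPM, and *Gins2* by 3.85 (SE 0.34), from 12.4 and 13.5 CPM to 0.486 and 1.32 CPM. By contrast *Cdc45*, which holds the active helicase together with GINS, fell by 1.32 (SE 0.17), and *Gins4*, from 23.6 and 25.1 CPM to 11.9 and 13.9 CPM, had a log2 FC of -0.91 with an SE of 0.15 (adjusted p = 0.000447 by edgeR), under the FC of 2. *Gins4* was the exception among the 40, and without a filter on low counts it passed as well.

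Among the polymerases, *Pola1*, the catalytic subunit of DNA polymerase α, went from 45 and 53.0 CPM in Gr-1lo to 2.28 and 2.89 CPM in Gr-1hi libraries, a log2 FC of -4.25 (SE 0.20). *Pole2*, a subunit of DNA polymerase ε, fell by 4.58 and *Prim2*, the large primase subunit, by 1.97. *Pcna* had 183 and 184 CPM in Gr-1lo and 18.8 and 20.2 CPM in Gr-1hi libraries, a log2 FC of -3.23 (SE 0.10) with the lowest adjusted p of the 40 (1.00e-07 by edgeR). Its Gr-1hi libraries lay close together. Clamp loader and Okazaki fragment genes (*Rfc3*, *Rfc4*, *Rfc5*, *Fen1*, *Lig1*) had log2 FC from -3.59 to -2.66.

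In nucleotide supply, *Dut*, the dUTPase, fell by 4.59 (SE 0.28), from 33.3 and 39.7 CPM to 1.12 and 1.94 CPM. *Rrm2* had 178 and 194 CPM in Gr-1lo and 16.9 and 30.6 CPM in Gr-1hi libraries, a log2 FC of -2.97 (SE 0.25). *Uhrf1*, which brings the maintenance DNA methyltransferase to newly copied DNA, had 111 and 127 CPM against 10.5 and 16.6 CPM, a log2 FC of -3.14 (SE 0.21). Of the G1/S regulators, the 2 cyclins E fell far more than *E2f1*: *Ccne1* went from 22.6 and 25.4 CPM to 1.61 and 2.77 CPM (log2 FC -3.47, SE 0.25), and *E2f1* from 23.1 and 28.4 CPM to 8.45 and 9.33 CPM (log2 FC -1.54, SE 0.25, adjusted p = 0.000473 by edgeR's quasi-likelihood test).

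In SP, all 40 genes were called lower in Gr-1hi than in Gr-1lo cells by the same test, against 49.6% of all genes called in either direction and 27.4% called lower. The median log2 FC was -2.79 (-0.088 over all genes), and the range ran from -3.90 in *Ccne2* to -1.06 in *Gins4*. With the stricter thresholds 12 of the 40 were lower, against 2.93% of all genes tested. Without libraries 5 and 7 the count was 39 of 40, and *Gins4* was the gene lost, as it was without library 5 alone, with RLE scaling and with DESeq2. The subsets did not overlap for any of the 40, against 45.6% of all genes lower without overlap. The plot of both tissues shows that the points of SP lie nearer to 0 for most genes.

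**Figure D2:**
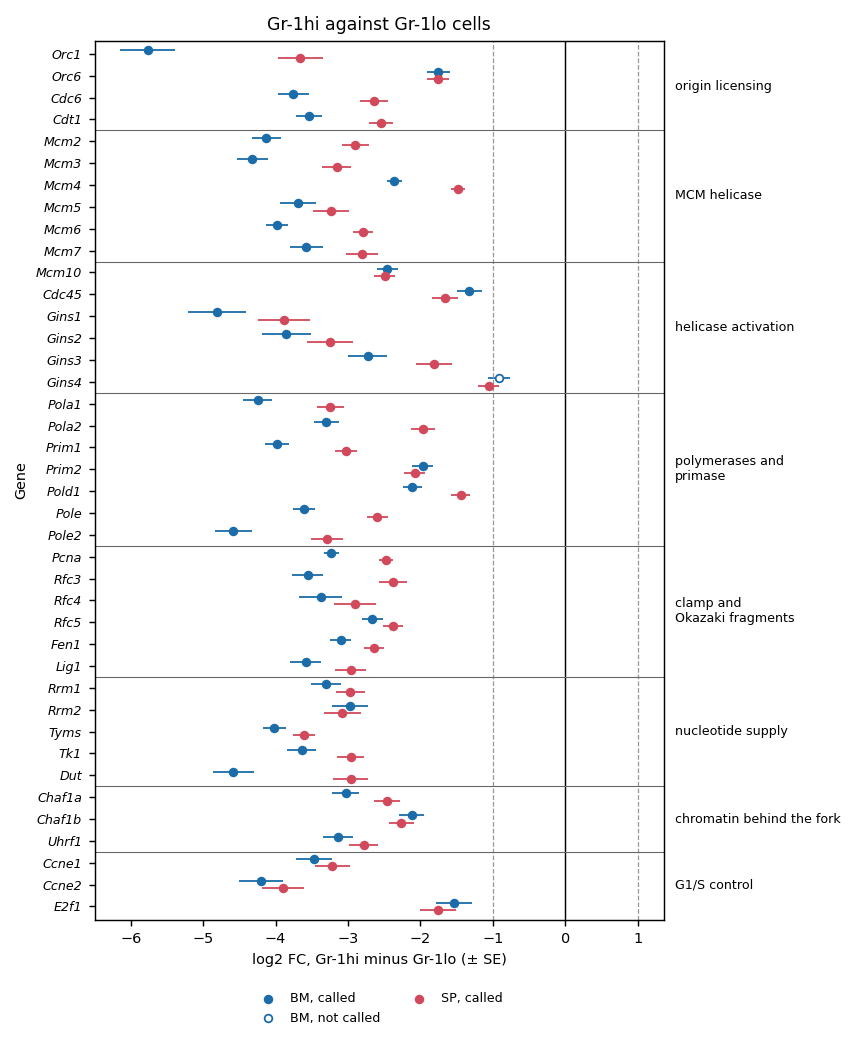
Log2 FC between Gr-1hi and Gr-1lo cells for each gene, in BM and in SP, with bars of 1 SE (n = 2 libraries per group). Filled points passed an adjusted p of 0.05 and an FC of 2 (dashed lines), and the single open point is *Gins4* in BM at -0.91.

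*Ccne2*, the second cyclin E, had 21.0 and 18.8 CPM in SP Gr-1lo and 1.24 and 1.43 CPM in SP Gr-1hi libraries, a log2 FC of -3.90 (SE 0.29). *Gins1* had 12.7 and 12.5 CPM against 1.09 and 0.606 CPM (log2 FC -3.88, SE 0.36), and *Orc1* 5.47 and 4.77 CPM against 0.512 and 0.287 CPM (log2 FC -3.66, SE 0.31). These were the genes of the 40 with the largest decreases among those with at least 1 CPM in Gr-1lo cells.

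*Mcm5* fell by 3.24 (SE 0.24), from 140 and 123 CPM to 13.8 and 14.1 CPM, and *Mcm2* by 2.90 (SE 0.19), from 72.7 and 61.8 CPM to 10.7 and 7.30 CPM. *Pcna* fell by 2.47 (SE 0.10), from 162 and 151 CPM to 26.1 and 30.1 CPM. In both tissues *Mcm4* was the MCM subunit that kept the largest share of its Gr-1lo level, 35.8% in SP.

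*Cdc6* had 24 and 18.9 CPM in SP Gr-1lo and 4.01 and 2.81 CPM in SP Gr-1hi libraries (log2 FC -2.65, SE 0.19). *Gins2* had 12.0 and 9.57 CPM against 1.21 and 1.05 CPM (log2 FC -3.25, SE 0.31), and *Pola1* 32.0 and 34.0 CPM against 4.10 and 2.84 CPM (log2 FC -3.25, SE 0.19). All 3 were between 6.26-fold and 9.52-fold lower.

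*Rrm2*, at 170 and 153 CPM in Gr-1lo and 17.5 and 20.7 CPM in Gr-1hi libraries, fell by 3.08 (SE 0.25), and *Uhrf1*, at 101 and 85.3 CPM against 12.7 and 14.3 CPM, by 2.79 (SE 0.21). *Ccne1* had 23.4 and 20.1 CPM against 2.74 and 1.91 CPM (log2 FC -3.22, SE 0.24). *E2f1* again fell least among the G1/S genes, by 1.76 (SE 0.25), from 22.8 and 21.0 CPM to 4.55 and 8.39 CPM.

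A remainder of replication transcripts was measured in Gr-1hi cells. The Gr-1hi mean was 1.82% (*Orc1*) to 53.1% (*Gins4*) of the Gr-1lo mean in BM, with a median of 8.85%, and 6.70% (*Ccne2*) to 48.1% (*Gins4*) in SP, with a median of 14.5%. In BM 22 genes were under 10%, and in SP 4 genes were. Over 20% was kept in both tissues by 7 genes, namely *Gins4*, *Cdc45*, *E2f1*, *Orc6*, *Prim2*, *Pold1* (the catalytic subunit of DNA polymerase δ) and *Chaf1b* (a subunit of chromatin assembly factor 1). A list of 10 genes of mitosis, all of them called lower in Gr-1hi cells of both tissues, had sums of 2289 and 2590 CPM in BM Gr-1lo, 1885 and 1909 CPM in SP Gr-1lo, 391 and 604 CPM in BM Gr-1hi and 329 and 427 CPM in SP Gr-1hi libraries. On TPM that were not scaled by TMM the medians were 4.79% in BM and 9.83% in SP.

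The second comparison asks how cells of the spleen differ from their counterparts in the marrow. In Gr-1lo cells none of the 40 genes was called between SP and BM by edgeR's quasi-likelihood test, against 4.06% of all genes, and none by DESeq2. All 40 log2 FC were negative, from -0.58 (*Orc1*) to -0.14 (*Ccne1*), with a median of -0.36 against -0.013 over all genes. At an unadjusted p of at most 0.05, 19 were lower in SP, against 8.32% of all genes tested. The libraries of the 2 tissues did not overlap for 39 of the 40, all lower in SP, against 32.5% of all genes lower without overlap. The genes also moved together within a group: 38 were higher in library 12 than in 11, and 38 higher in library 7 than in 8. These counts are therefore not made of independent genes and rest on 2 libraries per group.

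The largest decreases were those of *Orc1* (log2 FC -0.58, SE 0.23), *Pola1* (-0.57, SE 0.16) and *Mcm7* (-0.54, SE 0.20), whose adjusted p by edgeR were 0.211, 0.0861 and 0.186. *Mcm7* had 137 and 167 CPM in BM and 112 and 97.1 CPM in SP Gr-1lo libraries, so that its lowest BM library was above both of SP. The lowest adjusted p was that of *Mcm6* (log2 FC -0.53, SE 0.13, adjusted p = 0.0530 by edgeR's quasi-likelihood test). *Rrm2* (log2 FC -0.21, SE 0.23), *Ccne2* (-0.21, SE 0.23) and *Ccne1* (-0.14, SE 0.20) differed least, and *Ccne1* was the only one of the 40 whose libraries overlapped.

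*Cdc6* (log2 FC -0.31, SE 0.17), *Mcm2* (-0.38, SE 0.17), *Mcm5* (-0.35, SE 0.22), *Gins2* (-0.26, SE 0.26), *Uhrf1* (-0.36, SE 0.19), *Pcna* (-0.23, SE 0.095) and *E2f1* (-0.24, SE 0.23) had values of the same sign. Markers of cell types and stages also differed between the tissues, some in the same direction and others in the opposite one. The 10 mitosis genes were all lower in SP Gr-1lo cells, with a median log2 FC of -0.41 and none called. The monocyte list summed to 6491 and 6405 CPM in SP against 9710 and 8813 CPM in BM. Its median log2 FC was -0.47, with 1 of its 6 genes positive and none called. The early granulocyte list summed to 2235 and 1262 CPM in SP against 3359 and 3318 CPM in BM (6 of 7 genes lower, 1 of them called), and the B cell list to 62.5 and 78.8 CPM against 7.85 and 9.69 CPM, with *Cr2* at 0 in library 11. Erythroid genes, whose precursors divide, summed to 167 and 233 CPM in SP against 7.76 and 8.35 CPM in BM, with all 7 called higher, and so were all 8 T cell genes, all 5 plasma cell genes and 3 of 5 genes of secondary granules. The 4 genes of stem and progenitor cells were all lower in SP, 2 of them called, at 56.2 and 42.8 CPM in sum against 101 and 92.6 CPM. Their part in the small differences of the replication genes was not tested.

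In Gr-1hi cells the genes did not move as a block. Only *Pola2*, the regulatory subunit of DNA polymerase α, and *Dut* were called between SP and BM, 2 of the 40, and both were higher in SP. Of all genes tested, 15.5% were called in either direction and 14.0% were called higher. *Pola2* had 3.40 and 4.38 CPM in BM and 8.71 and 7.02 CPM in SP Gr-1hi libraries, a log2 FC of 1.02 with an SE of 0.18 (adjusted p = 0.00386 by edgeR's quasi-likelihood test). *Dut* had 1.12 and 1.94 CPM in BM and 3.98 and 2.58 CPM in SP, a log2 FC of 1.11 with an SE of 0.30 (adjusted p = 0.0238). Both calls were lost without library 5, without library 9 and without libraries 5 and 7. Over the fits without 1 library the log2 FC ran from 0.77 to 1.11 for *Pola2* and from 0.69 to 1.45 for *Dut*. The call of *Pola2* was also lost with RLE scaling and with DESeq2, that of *Dut* was also lost with only the 4 libraries compared, and both were lost with quantile-normalized TPM.

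With the adjusted p alone, at any FC, 12 genes were higher in SP Gr-1hi cells, against 20.1% of all genes, and 2 were lower, against 13.9%. The 12 held licensing factors and helicase subunits (*Cdc6*, *Cdt1*, *Mcm2*, *Mcm3*, *Mcm4*, *Mcm6*), polymerase subunits (*Pola2*, *Pole*, *Pole2*), the clamp and a loader subunit (*Pcna*, *Rfc3*) and *Dut*. The 2 lower genes were *Cdc45*, with 21.9 and 18.9 CPM in BM and 10.2 and 14.7 CPM in SP (log2 FC -0.71, SE 0.18, adjusted p = 0.0164 by edgeR), and *Prim2*, with 5.64 and 6.98 CPM in BM and 4.19 and 4.91 CPM in SP (log2 FC -0.47, SE 0.15, adjusted p = 0.0453). The libraries did not overlap for either of them.

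*Mcm2* was at 4.67 and 5.33 CPM in BM and 10.7 and 7.30 CPM in SP Gr-1hi libraries, a log2 FC of 0.85 with an SE of 0.20 (adjusted p = 0.0127 by edgeR), and *Cdc6* had a log2 FC of 0.80 with an SE of 0.23 (adjusted p = 0.0267). *Pcna* was higher by 0.53 (SE 0.10, adjusted p = 0.00547). In contrast, *Mcm5*, at 9.23 and 16.6 CPM in BM and 13.8 and 14.1 CPM in SP, had overlapping libraries and a log2 FC of 0.11 (SE 0.24).

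*Orc1* had the largest fitted value, 1.53 (SE 0.53, adjusted p = 0.0543 by edgeR), from 7 counts in BM and 26 in SP. *Uhrf1* (log2 FC -0.0041, SE 0.20), *Ccne1* (0.10, SE 0.28), *Gins2* (0.34, SE 0.40), *Pola1* (0.43, SE 0.21) and *Rrm2* (-0.31, SE 0.24) had libraries that overlapped between the tissues. *Chaf1b*, at 4.82 and 5.82 CPM in BM and 3.34 and 4.21 CPM in SP, had a log2 FC of -0.49 with an SE of 0.18 (adjusted p = 0.0694) and *E2f1* one of -0.46 (SE 0.26, adjusted p = 0.20), neither of which passed edgeR's test.

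Over the 40 genes the median log2 FC was 0.24 (0.030 over all genes), with 28 positive and 12 negative values. Libraries did not overlap for 16 genes higher in SP, against 35.9% of all genes, and for 7 lower in SP, against 31.9%. This median depends on single libraries: it was -0.16 without library 9, 0.066 without library 5 and 0.50 without library 10. Library 10 was above library 9 for 38 of the 40 genes, by a median of 0.42 on the log2 scale, and above it as well in the sums of the mitosis list (604 against 391 CPM) and of the monocyte list (1746 against 1323 CPM). In the other groups library 12 exceeded library 11 for 38 genes, library 7 exceeded library 8 for 38, and library 5 exceeded library 6 for 22.

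**Figure D3:**
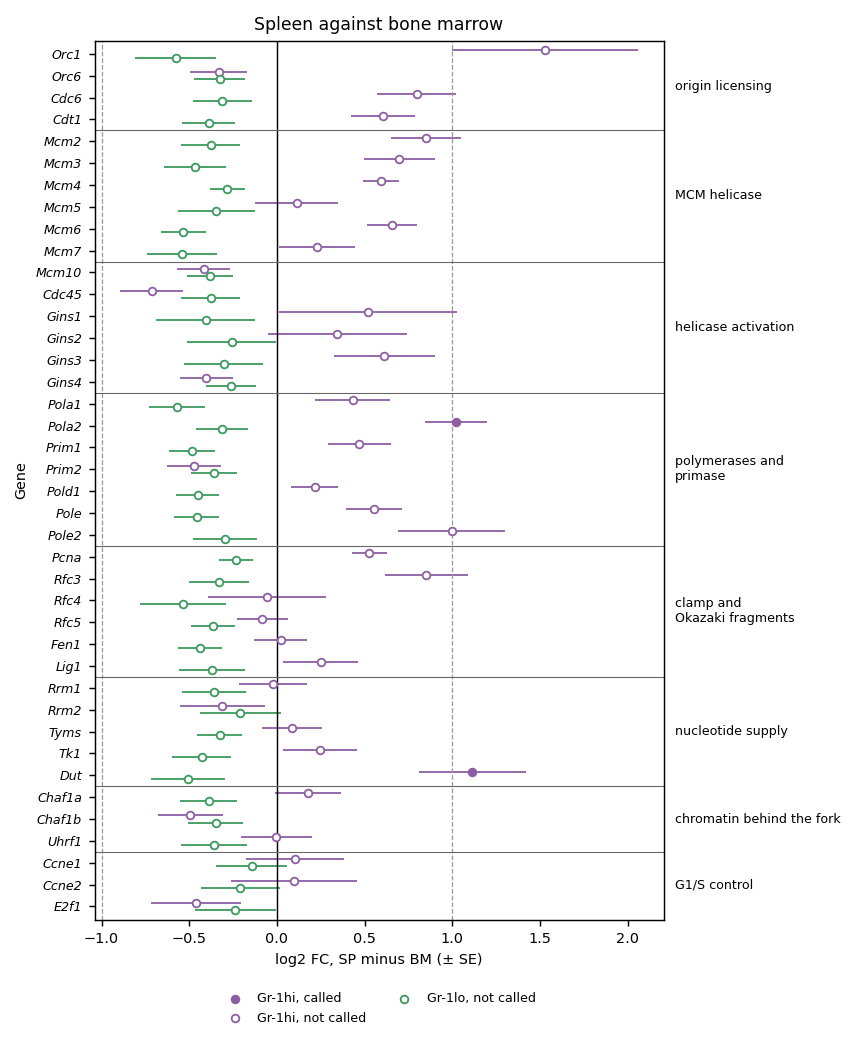
Log2 FC between SP and BM for each gene, in Gr-1hi and in Gr-1lo cells, with bars of 1 SE (n = 2 libraries per group). All 40 points of Gr-1lo cells lie between -0.58 and -0.14, while those of Gr-1hi cells lie on both sides of 0, and the filled points are *Pola2* and *Dut*.

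Markers of other cells, and of the sorted cells themselves, differed between the tissues in the same libraries. The 8 B cell genes were all called higher in SP Gr-1hi cells and summed to 501 and 339 CPM in SP against 17.8 and 14.3 CPM in BM, with none at 0. Germinal centre B cells divide, and of their genes *Rgs13* was at 1.48 and 1.05 CPM in SP and at 0 in both BM libraries, *Mybl1* was at 8.44 and 3.38 CPM against 1.08 and 2.11 CPM and was called, and *Bcl6* was at 307 and 298 CPM against 332 and 278 CPM, with overlapping libraries. All 5 plasma cell genes tested were called higher, and 7 of the 8 T cell genes were. Erythroid genes summed to 218 and 735 CPM in SP against 35.9 and 44.1 CPM in BM, with 6 of 7 called higher and a median log2 FC of 3.52. Of the 4 stem and progenitor genes 1 was called higher and 2 lower. Of the 7 early granulocyte genes all were lower in SP Gr-1hi cells, 3 of them called, and the 10 mitosis genes were all lower with a median log2 FC of -0.42 and none called. All 5 genes of secondary granules were lower in SP, none called, at 30727 and 55696 CPM in sum against 67784 and 76687 CPM in BM. The 5 genes of mature neutrophils summed to 22523 and 23767 CPM in SP against 36376 and 32379 CPM in BM. Of these 5, 2 were called lower and 2 had positive values. The part of these cells in the levels of the replication genes was not tested.

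Whether the difference between the subsets itself differed between SP and BM was tested by an interaction term. It was called for 11 of the 40 genes, all in the direction of a smaller difference in SP, against 9.74% of all genes in either direction and 7.74% in that direction. The 11 were *Orc1*, *Cdc6*, *Mcm2*, *Mcm3*, *Mcm6*, *Pola1*, *Pola2*, *Pole*, *Pole2*, *Rfc3* and *Dut*. They came from licensing, the helicase, the polymerases, the clamp loader and nucleotide supply. No helicase activator, chromatin factor or G1/S regulator was called. However, the activators *Gins1* (0.93, SE 0.58) and *Gins3* (0.92, SE 0.36) had values near those of some called genes, and the roles were not tested against each other. At any FC, 16 genes passed an adjusted p of 0.05, against 10.3% of all genes in that direction.

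*Pola2* had an interaction of 1.33 on the log2 scale (SE 0.23, adjusted p = 0.00911 by edgeR's quasi-likelihood test): its log2 FC between Gr-1hi and Gr-1lo cells was -3.30 in BM and -1.96 in SP. For *Mcm6* the interaction was 1.19 (SE 0.19, adjusted p = 0.00727), from -3.98 in BM to -2.79 in SP, and for *Dut* 1.62 (SE 0.37, adjusted p = 0.0238), from -4.59 to -2.97. *Orc1* had the largest, 2.11 (SE 0.57, adjusted p = 0.0411 by edgeR), which rests on the 7 counts in BM Gr-1hi libraries. *Mcm2* (1.23, SE 0.26) and *Cdc6* (1.11, SE 0.28) were also called, and *Pola1* was at the FC threshold (1.0, SE 0.26).

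Other genes of the same machinery had interactions near 0. *Orc6* was at -0.0069 (SE 0.21), *Mcm10* at -0.034 (SE 0.20), *Rrm2* at -0.10 (SE 0.33), *Prim2* at -0.11 (SE 0.20), *Gins4* at -0.14 (SE 0.21), *Chaf1b* at -0.14 (SE 0.24), *E2f1* at -0.22 (SE 0.34) and *Cdc45* at -0.34 (SE 0.24). *Mcm5* (0.46, SE 0.32), *Gins2* (0.60, SE 0.47), *Uhrf1* (0.36, SE 0.28) and *Ccne1* (0.25, SE 0.35) were positive but did not pass, and *Pcna* (0.76, SE 0.14, adjusted p = 0.0107 by edgeR) passed the adjusted p and not the FC.

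The number of calls rested on single libraries. It was 1 without library 5, 2 without library 8, 9 or 12, 4 without library 7 and 4 without libraries 5 and 7, and it was 11 without library 6 or 10 and 8 without library 11. Over the 8 fits without 1 library, *Pola2* was called in each and *Mcm6* in 7, the exception being the fit without library 5. With quantile-normalized TPM and limma none of the 40 was called, and the median interaction was 0.41 in place of 0.64.

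**Figure D4:**
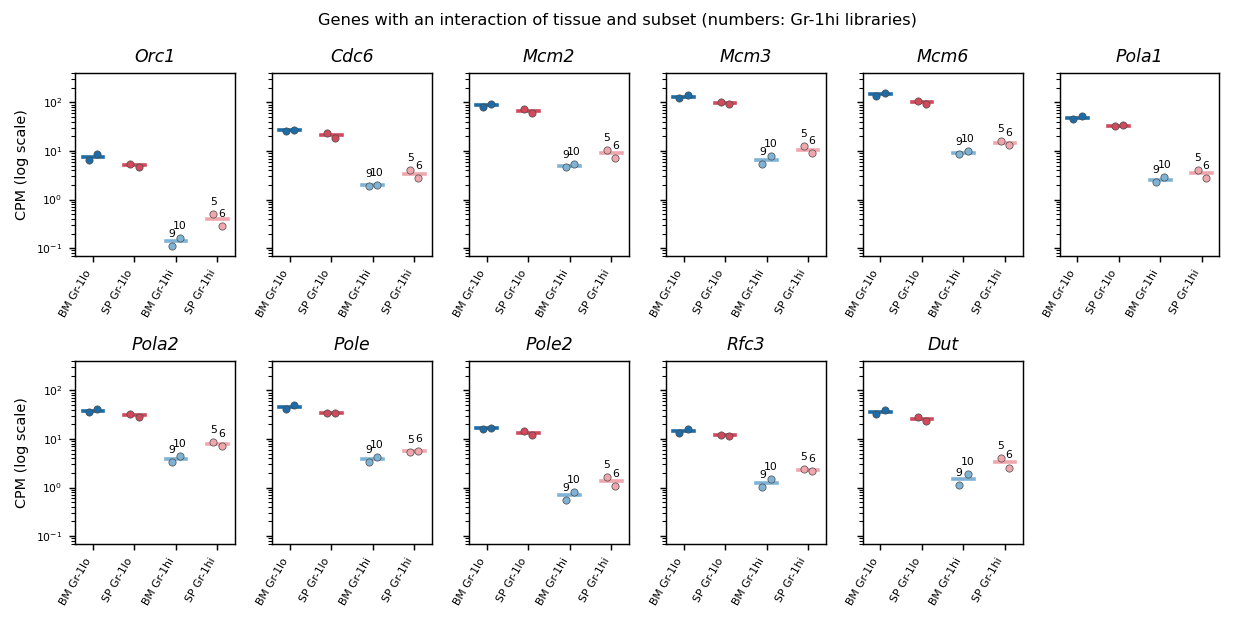
Level in CPM (log axis) of the 11 genes with an interaction of tissue and subset, in the 4 groups. Points are libraries and lines group means (n = 2), and the numbers name the Gr-1hi libraries. In 10 of the 11 panels both SP Gr-1hi libraries lie above both BM Gr-1hi libraries, against 35.9% of all genes tested. In *Pola1* libraries 6 and 10 overlap. The interaction that selected the 11 genes contains this same difference, so the count is not a separate result.

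The sharing of levels within complexes also differed between groups. Across the MCM helicase, TPM ranged from 38.7 (*Mcm2*) to 129 (*Mcm5*) in BM Gr-1lo cells, a ratio of 3.33 between the highest and the lowest subunit, and the ratio was 3.40 in SP Gr-1lo, 7.48 in BM Gr-1hi and 6.23 in SP Gr-1hi cells. In both Gr-1hi groups *Mcm4* was the highest subunit, at 8.98 TPM in BM and 16.3 TPM in SP. GINS, a complex of 4 subunits, had the widest ratio of the 7 complexes compared, in each of the 4 groups. *Gins4* was at 55.5 TPM and *Gins2* at 9.69 TPM in BM Gr-1lo cells, a ratio of 5.72, and at 16 and 0.365 TPM in BM Gr-1hi cells, a ratio of 43.9. In SP these ratios were 5.69 in Gr-1lo and 26.1 in Gr-1hi cells.

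For DNA polymerase α with primase, the ratio of the highest to the lowest subunit was 2.11 in BM Gr-1lo and 3.62 in BM Gr-1hi cells, and 1.93 and 2.40 in SP. For ribonucleotide reductase it was 3.46 and 4.34 in BM, and 3.84 and 3.55 in SP, where it was the lower one in Gr-1hi cells. In BM the order of *Pole* and *Pole2* differed between the subsets. *Pole2* was the higher in Gr-1lo cells, at 17.7 against 12.8 TPM in BM and 13.9 against 8.92 TPM in SP. *Pole* was the higher in BM Gr-1hi cells, at 0.570 against 0.401 TPM. In SP Gr-1hi cells the means were 1.0 TPM for *Pole* and 0.965 TPM for *Pole2*. There the libraries disagreed, with *Pole* at 1.02 and 0.987 TPM and *Pole2* at 1.20 and 0.726 TPM. These ratios are descriptions with 2 libraries per group, and no test was made of them.

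**Figure D5:**
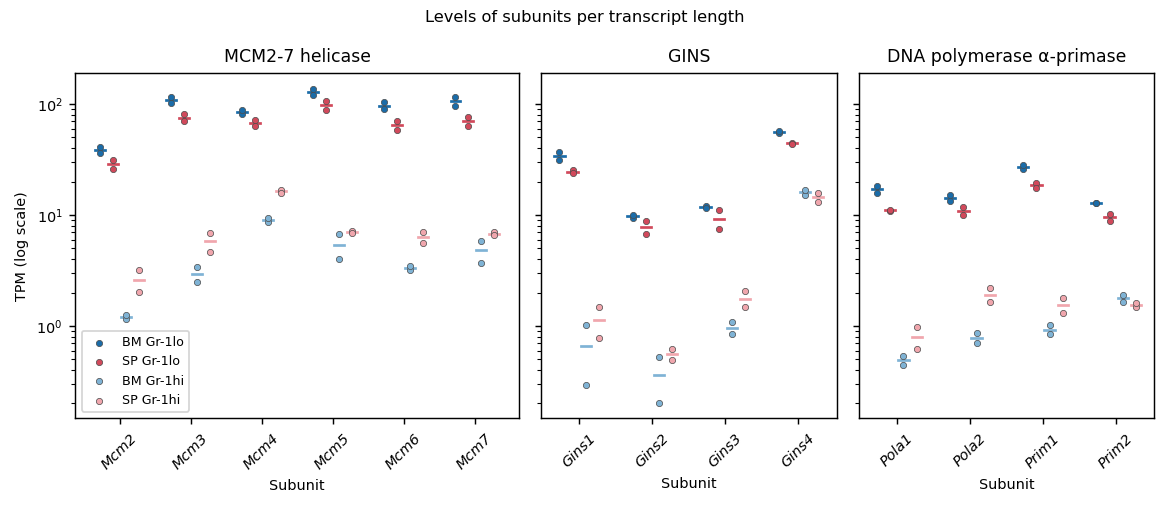
TPM (log axis) of the subunits of the MCM helicase, GINS and DNA polymerase α with primase in the 4 groups, with points for libraries and lines for group means (n = 2). *Gins4* stays between 14.5 and 16 TPM on average in Gr-1hi cells while *Gins2* falls to 0.365 TPM in BM, and *Mcm4* is the highest MCM subunit in both Gr-1hi groups.

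Other genes of the pathway were read from lists of the replisome (36 genes), of nucleotide metabolism (11) and of G1/S control (21), all of which were tested. Of the replisome list, 28 were called lower in BM Gr-1hi than in BM Gr-1lo cells (33.1% of all genes were) and 27 in SP (27.4% of all genes), and none was called higher. *Timeless*, a fork protection factor, had a log2 FC of -4.20 (SE 0.22) in BM and -3.07 (SE 0.21) in SP, and *Pold2*, a subunit of DNA polymerase δ, one of -4.53 (SE 0.21) in BM. *Chtf18*, a subunit of an alternative clamp loader, fell by 2.99 (SE 0.17) in SP. Genes that were not called in either tissue included *Orc3*, *Orc4*, *Rfc1* and *Rfc2*.

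Of the nucleotide list, 8 were called lower in Gr-1hi cells in each tissue, beside the same 33.1% and 27.4% of all genes. *Mthfd1*, an enzyme of folate metabolism, had a log2 FC of -5.32 (SE 0.21) and *Ctps*, a CTP synthase, one of -4.93 (SE 0.26) in BM, and *Nme1* and *Shmt1* had -2.91 (SE 0.18) and -2.53 (SE 0.25) in SP. *Rrm2b*, the ribonucleotide reductase subunit used outside S phase, went the other way, with a log2 FC of 2.12 (SE 0.090) in BM and 1.84 (SE 0.089) in SP. Between SP and BM Gr-1hi cells 5 of the 11 were called higher in SP (14.0% of all genes were), with *Mthfd1* at 2.45 (SE 0.23) and *Ctps* at 1.84 (SE 0.29), and 6 had an interaction, against 9.74% of all genes (*Mthfd1* 3.09, SE 0.27, and *Ctps* 2.61, SE 0.35).

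Of the 21 G1/S regulators, 9 were called lower in Gr-1hi cells in BM and 3 higher, where 33.1% of all genes were called lower and 24.2% higher. In SP 10 were called lower and 4 higher, where 27.4% of all genes were called lower and 22.3% higher. *Cdk4*, the kinase partner of D cyclins, fell by 4.50 (SE 0.19) in BM, *E2f7*, an E2F repressor, by 2.82 (SE 0.18) in SP and *Cdkn1a*, the inhibitor p21, by 3.78 (SE 0.36) in BM and 3.37 (SE 0.34) in SP. *Cdkn1b*, which encodes the inhibitor p27, was higher in Gr-1hi cells by 1.86 (SE 0.10) in BM and 2.00 (SE 0.10) in SP, and *Cdkn2d* by 1.24 and 1.40. *Ccnd3* was higher in BM, and *Ccnd1* and *Ccnd2* in SP.

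Between SP and BM Gr-1hi cells *Pold2* was the one replisome gene called (log2 FC 1.56, SE 0.23), and *Ccnd1* (2.33, SE 0.53), *Ccnd2* (1.85, SE 0.26) and *Cdk4* (1.33, SE 0.19) were the G1/S genes called, all higher in SP, which for the G1/S list is near the 14.0% of all genes. In the interaction, 4 replisome genes (*Pold2*, *Rnaseh2a*, *Rpa1* and *Timeless*) and 2 G1/S genes (*Cdk4* and *Ccnd2*) were called, all with positive values, and both counts are near the 9.74% of all genes. Between SP and BM Gr-1lo cells no gene of the 3 lists was called by edgeR. The median log2 FC of the replisome list was -2.36 in BM and -2.16 in SP between the subsets, against -3.50 and -2.79 for the 40 genes.

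The promoter letters were set beside these values as a description. Genes with E2F letters had a median interaction of 1.0 (14 genes, 7 called). Genes whose promoters lacked them had one of 0.41 (19 genes, 3 called), and 7.74% of all genes tested were called in that direction. These calls rested on single libraries, as given above, and with quantile-normalized TPM none of them remained. The genes were chosen with earlier results known, and the difference between these sets was not tested. For SP against BM Gr-1hi cells the medians were 0.61 and 0.021, while 0 of the 14 and 2 of the 19 were called, beside 15.5% of all genes. In the difference between Gr-1hi and Gr-1lo cells the medians lay closer, at -3.64 and -3.23 in BM and -2.80 and -2.64 in SP. The pair of overlapping matches in the *Mcm6* and *Mcm5* promoters shown above stood beside interactions of 1.19 (called) and 0.46 (not called). *Pola2*, *Mcm2* and *Dut*, which were called, had promoters without the letters searched. That of *Pola2* held TTTGGCGG, which was not among them.

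The 40 genes lay on 14 chromosomes. For 9 of them (22.5%) a protein-coding neighbour on the other strand started within 1000 bases before or after the gene's own start. The share was 10.8% among 22028 protein-coding genes (GENCODE M21). Examples were *Mcm4* with *Prkdc*, *Mcm7* with *Ap4m1* and *Cdc45* with *Ufd1*, and *Ap4m1* and *Ufd1* overlap their partners. Another annotated gene overlapped 20 of the 40, on the same strand for 9 and on the opposite strand for 17. The library kit marks the strand and the label of the count table has the word stranded, but the counting option itself is not given in the sources used here. Only if reads were counted without strand could those of pairs on opposite strands (*Fen1* with *Tmem258*, *Tk1* with *Afmid*) not be told apart. *Pcna* and *Tyms* have annotated pseudogenes, and how reads shared with them were counted is not known, so that the levels of both genes are uncertain.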

How the data were processed

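Per the labels, total RNA was taken from the sorted cells, and stranded mRNA libraries were sequenced in pairs on a NovaSeq instrument. Per the labels and the methods, the authors checked reads with FastQC, filtered them with Sickle, aligned them to GRCm38 with STAR and deposited whole-number counts per gene from featureCounts, without normalization or pooling. No column was left out, and no entry lacked a gene name.

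From these counts, 17650 of 54188 genes passed filterByExpr. They were scaled by TMM and fitted in edgeR 4.0.16 (R 4.3.3) with 1 term per group over all 8 libraries (4 residual degrees of freedom) by glmQLFit with robust dispersion. Contrasts used the quasi-likelihood test of edgeR, adjusted after Benjamini and Hochberg over all genes tested. A gene was called when its adjusted p did not exceed 0.05 and its FC reached 2. SE is the size of the log2 FC divided by the square root of F. TPM used exon lengths of GENCODE M21, an earlier release than the authors' annotation on the same build, which held 53947 of the genes. The procedure was tested on simulated data. Within each group the libraries differed beyond counting error. The chi-square per degree of freedom was 18.9 in BM Gr-1lo, 21.0 in SP Gr-1lo, 21.3 in BM Gr-1hi and 66.7 in SP Gr-1hi cells. The fit shares its estimate of the spread between the groups.

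The 40 genes and the gene lists were chosen with earlier results of these data known, so no p value is given for a list. Values per library are given for 10 genes that stand for the roles and for the 3 largest increases and decreases of a comparison (1 CPM or more in whichever group was higher), and for genes that pass against the majority. Of the other lists, the 2 called genes of largest change per comparison are named. Further genes of those lists were named after their values were seen. Alternatives were RLE scaling, DESeq2 1.42.0, no filter, quantile-normalized TPM with limma 3.58.1, a fit of the 4 libraries compared, stricter thresholds, and fits without libraries 5 and 7 and without each library. A gene of the germinal centre list is not reported here.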

Additional observations from a re-analysis of the deposited data

Results flagged for a closer look

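For 11 of the 40 genes the difference between Gr-1hi and Gr-1lo cells differed between SP and BM by the interaction term of edgeR's quasi-likelihood test. The interactions, on the log2 scale, were 2.11 for *Orc1*, 1.11 for *Cdc6*, 1.23 for *Mcm2*, 1.16 for *Mcm3*, 1.19 for *Mcm6*, 1.0 for *Pola1*, 1.33 for *Pola2*, 1.01 for *Pole*, 1.29 for *Pole2*, 1.18 for *Rfc3* and 1.62 for *Dut*. Of all genes tested, 7.74% were called in that direction. Of the 8 fits that each left out 1 library, *Pola2* was called in 8, *Mcm6* in 7, *Mcm2* in 4, *Mcm3*, *Rfc3* and *Dut* in 3, *Cdc6* and *Pole* in 2, and *Orc1*, *Pola1* and *Pole2* in 1. Groups of 2 libraries are too small for a check of single outlying values.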

How the results depend on the processing

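No paired analysis was possible because each library has a number of its own and no number is shared between groups. The cause of the changes below was not tested. Between Gr-1hi and Gr-1lo cells, 39 or 40 genes were called under every alternative at the same thresholds, and 28 (BM) and 12 (SP) at the stricter ones. Their median log2 FC in BM (-3.50) was -3.36 with RLE scaling, -3.36 with DESeq2, -2.71 with quantile-normalized TPM and limma, and -3.71 to -3.17 without 1 library. In SP (-2.79) it was -2.66, -2.66, -2.32, and -2.92 to -2.69. RLE scaling moved the median of all genes from -0.17 to -0.025 in BM. On TPM the Gr-1hi level became 4.79% (BM) and 9.83% (SP) of the Gr-1lo level. Between SP and BM Gr-1lo cells 0 genes were called under each alternative. In Gr-1hi cells, calls between SP and BM (2) numbered 1 with RLE scaling, 1 with DESeq2, 4 without a filter, 0 with quantile-normalized TPM, 1 with only the 4 libraries compared, 0 without libraries 5 and 7, and 0 to 7 without 1 library. Of calls among all genes there, 90.4% were higher in SP, and 77.8% with quantile-normalized TPM. The median (0.24) was -0.067 with quantile-normalized TPM and -0.16 to 0.50 without 1 library. Interaction calls (11) numbered 9 with RLE scaling and DESeq2, 0 with quantile-normalized TPM, 4 without libraries 5 and 7, and 1 to 11 without 1 library, and their median (0.64) was 0.41 with quantile-normalized TPM and 0.22 to 0.89 without 1 library. Fits without 1 library assume that the lone library varies like the other groups. Single genes with small differences changed sign. Between SP and BM Gr-1hi cells, quantile-normalized TPM gave -0.27 for *Ccne1*, -0.13 for *Gins2* and -0.095 for *Pola1*. *Ccne1* was -0.17 without libraries 5 and 7, and *Uhrf1* was 0.021 without a filter, 0.011 with only the 4 libraries and 0.100 without libraries 5 and 7. Without 1 library, *Ccne1* ran from -0.32 to 0.44, *Gins2* from -0.30 to 1.11, *Mcm5* from -0.33 to 0.49, *Rrm2* from -0.75 to 0.079 and *Uhrf1* from -0.37 to 0.26. In the interaction, *Ccne1* was -0.10 with quantile-normalized TPM, and without libraries 5 and 7 *Cdc45* was 0.014, *Chaf1b* 0.10, *E2f1* 0.24 and *Rrm2* 0.12. Without 1 library, *Ccne1* ran from -0.19 to 0.57, *E2f1* from -0.82 to 0.058, *Gins2* from -0.055 to 1.36, *Rrm2* from -0.56 to 0.27 and *Uhrf1* from -0.029 to 0.60.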
